A study of Mus musculus with 24 samples.

Results

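The miR-30 family was followed through its 5 probes, mmu-miR-30a, mmu-miR-30b, mmu-miR-30c, mmu-miR-30d and mmu-miR-30e, among 566 mouse miRNA probes counted by NanoString hybridisation in 24 colon libraries. Probes were taken by name, and the panel held 0 probes for the opposite arm of a miR-30 hairpin. The libraries were 6 AOM-DSS tumours, 7 AOM-DSS normal samples, 5 APC tumours and 6 APC normal samples, all labelled colon mucosa with a status of tumour or normal. AOM-DSS names mice given the carcinogen azoxymethane and dextran sodium sulfate, a chemical that injures the colon and causes colitis. APC names mice of the APC;CpC line, in which Cre recombinase removes Apc, the brake on Wnt signalling, in the gut epithelium. Both tumours and normal tissue of the APC groups carry that genotype, and both AOM-DSS groups come from treated mice, so neither normal group is tissue of an untreated wild type animal. The labels give no age, sex, strain background, exact allele or treatment schedule, and nothing states that the libraries of a group came from separate animals, so p-values measure the spread between these samples.

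MicroRNAs are short RNAs that guide Argonaute proteins to messenger RNAs, chiefly through bases 2 to 8 of their 5′ end, the seed. Members of a family share the seed and can therefore recognise overlapping sets of messages. The miR-30 family is known from work in other epithelia as a group that is high in differentiated cells and that represses the transcription factor Snai1 and other drivers of the epithelial to mesenchymal transition, and it also targets the autophagy gene Beclin 1.

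The mature sequences are shown because all members have the same seed while the probes differed in how they behaved in tumours. They were read 5′ to 3′ from RefSeq on GRCm38.p6, with the seed in capitals, and 3 of the 5 members were found there:
mmu-miR-30a-5p: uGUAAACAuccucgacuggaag
mmu-miR-30c-5p: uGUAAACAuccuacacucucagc
mmu-miR-30e-5p: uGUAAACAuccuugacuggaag
The mature entries of miR-30b and miR-30d were not used here. Counting from 1 at the 5′ end, miR-30a and miR-30e differed by the single substitution C13U. miR-30c differed from miR-30a by 5 substitutions, C13A, G14C, G18C, G19U and A20C. Whether a probe for one of these members also captured its near-identical relative is not stated in the sources used here, so the counts of miR-30a and miR-30e carry that uncertainty. The sequences of miR-30b and miR-30d were not compared, so their counts, and contrasts of them with miR-30a, may carry it too. Among 1679 mature mouse names in the table, 4 had the seed GUAAACA, the fourth being miR-384-5p. That table held no mature entry for miR-30b or miR-30d, so the count leaves them out. The miR-384-5p probe had 1 to 31 counts and exceeded background in 1 of 24 libraries.

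The hairpins lie in pairs. Mir30a (chr1:23272269-23272339) and Mir30c-2 (chr1:23291701-23291784) are 19361 bases apart on the plus strand, with no annotated gene spanning either. Mir30c-1 (chr4:120769534-120769622) and Mir30e (chr4:120772606-120772697) are 2983 bases apart on the minus strand, inside the span of Nfyc, which encodes a subunit of the CCAAT-binding factor NF-Y. Mir30b (chr15:68337415-68337510) and Mir30d (chr15:68341208-68341289) are 3697 bases apart, again with no spanning gene. Mir30c-1 and Mir30c-2 give the same mature miR-30c, so that probe counts the product of both loci. All coordinates are from GRCm38.p6.

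Total miRNA counts had a median of 251263.5 per library and ran up to 329346. AOM-DSS normal 7, with 47235, and APC tumour 1, with 134680, were the shallowest. Levels are CPM, a probe's share of its library's counts, after TMM scaling of library composition, tests are edgeR's quasi-likelihood test on the counts with Benjamini-Hochberg adjustment over 563 tested miRNAs, and the threshold is an adjusted p of 0.05. All 120 member values lay above the background set by 33 viral probes in the same library, the closest being miR-30e in APC tumour 1 at 1.21 times background. APC tumour 1 was the lowest of the 5 APC tumours for 176 of the 563 miRNAs and the highest for 180, and for 4 of the 5 miR-30 members it was the lowest. All APC libraries were on cartridge 1 and all AOM-DSS libraries on cartridges 2 and 3, so model and cartridge cannot be told apart. All 8 measured colon epithelium markers, which include miR-192, miR-194 and the miR-200 family, exceeded background in every library.

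**Figure D1:**
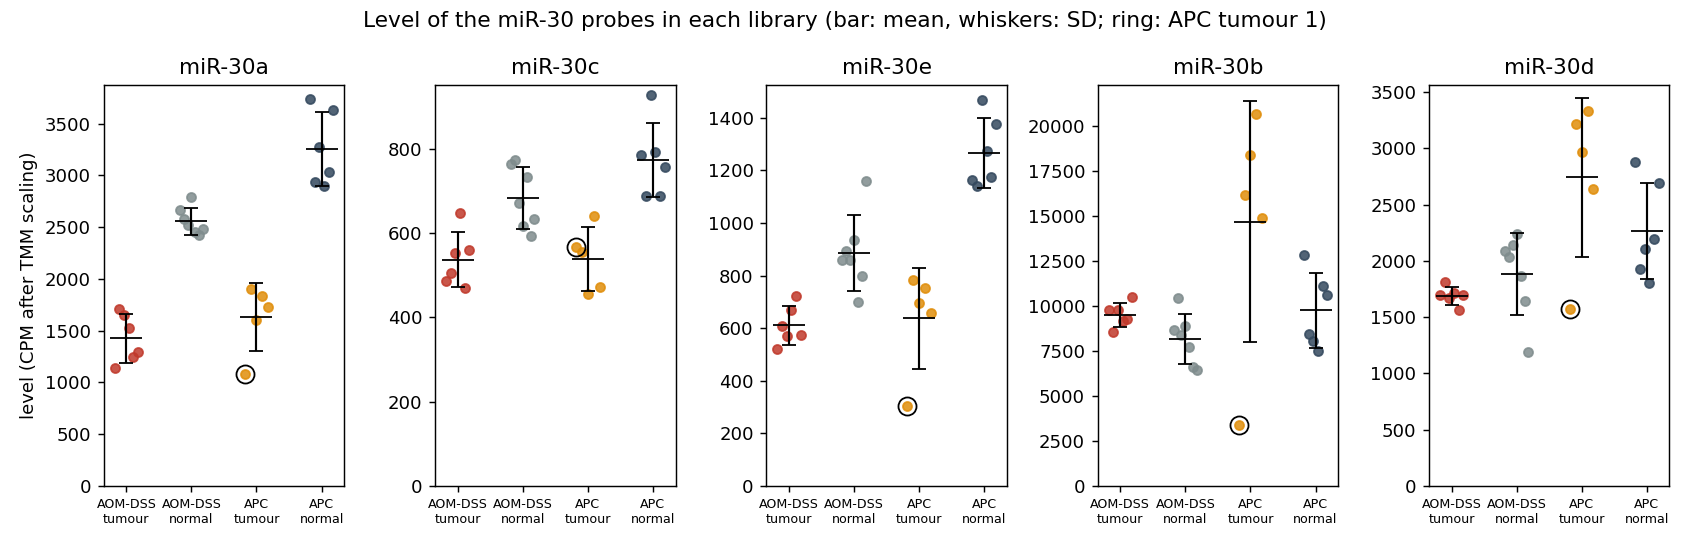
Level of each miR-30 probe in CPM after TMM scaling (vertical axes, each starting at 0) in the 4 groups, with 1 point per library, the group mean as a bar and SD as whiskers. miR-30a, miR-30c and miR-30e are lower in both tumour groups, whereas miR-30b and miR-30d are high in 4 and 3 of the 5 APC tumours and low in APC tumour 1, which is ringed.

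miR-30a, encoded on chromosome 1, fell in the tumours of both models. In AOM-DSS tumours it ran from 1138 to 1713 CPM with a median of 1408 CPM, against 2420 to 2790 CPM with a median of 2524 CPM in AOM-DSS normal samples. In APC tumours 1 to 5 it stood at 1082, 1901, 1602, 1835 and 1726 CPM, against 2901 to 3741 CPM with a median of 3156 CPM in APC normal samples. Every tumour library lay below every normal library of its model. The level averaged 1426 ± 235 CPM in AOM-DSS tumours (SD, n = 6) and 2559 ± 131 CPM in AOM-DSS normal samples (SD, n = 7). This was a 1.80-fold fall, a log2 fold change of -0.84 ± 0.13 (SE) with an adjusted p of 4.05e-06. It averaged 1629 ± 327 CPM in APC tumours (SD, n = 5) and 3253 ± 360 CPM in APC normal samples (SD, n = 6), a 1.99-fold fall with a log2 fold change of -0.995 ± 0.14 (SE) and an adjusted p of 5.96e-07. Within the only cartridge that held both AOM-DSS groups, with 2 tumours and 7 normal samples, the log2 fold change of miR-30a was -0.88 ± 0.21 (SE, adjusted p = 0.00455). The call held in each of the other settings and with each library left out, but the size moved with the scaling. With total counts alone the log2 fold change was -0.61 in AOM-DSS tumours and -0.34 in APC tumours (adjusted p = 0.0147, the range over 14 other settings being 2.07e-12 to 0.0172), where the median of all miRNAs stood at 0.30 and 0.69. With the mRNA probes as scale it was -1.35 in AOM-DSS tumours, where that median was -0.40.

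miR-30e, which differs from miR-30a by 1 base and is encoded within Nfyc, fell as well. In AOM-DSS tumours it ran from 520 to 721 CPM with a median of 591 CPM, against 699 to 1161 CPM with a median of 859 CPM in AOM-DSS normal samples. In APC tumours 1 to 5 it stood at 304, 781, 694, 751 and 656 CPM, against 1143 to 1467 CPM with a median of 1225 CPM in APC normal samples. All 5 APC tumours lay below all 6 normal samples, APC tumour 1 far below the other 4, and 5 of the 6 AOM-DSS tumours lay below all 7 normal samples. The fall was 1.43-fold in the AOM-DSS model, with a log2 fold change of -0.51 ± 0.16 (SE) and an adjusted p of 0.0198. It was 1.98-fold in the APC model, with a log2 fold change of -0.98 ± 0.17 (SE) and an adjusted p of 2.40e-05, and -0.81 on the log2 scale without APC tumour 1. With total counts alone it was -0.35 in APC tumours (adjusted p = 0.0450, the highest of 14 other settings, the lowest being 1.66e-08) and -0.25 in AOM-DSS tumours. With the mRNA probes as scale it was -1.02 in AOM-DSS tumours. The AOM-DSS call is the less secure of these: with cartridge as a term the log2 fold change was -0.63 ± 0.24 (SE, adjusted p = 0.0954), within the shared cartridge it was -0.67 ± 0.25 (SE, adjusted p = 0.0899), and without AOM-DSS tumour 1 the adjusted p was 0.0587. Over its 16 other settings the adjusted p ran from 0.00129 to 0.192.

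miR-30c, the product of both loci, moved the same way by less. In AOM-DSS tumours it ran from 470 to 648 CPM with a median of 529 CPM, against 593 to 773 CPM with a median of 671 CPM in AOM-DSS normal samples. In APC tumours 1 to 5 it stood at 566, 555, 454, 640 and 471 CPM, against 687 to 928 CPM with a median of 771 CPM in APC normal samples. All APC tumours were below all APC normal samples, and 5 of the 6 AOM-DSS tumours were below all AOM-DSS normal samples. APC tumour 1 was not apart from the other APC tumours for this member. In the APC model miR-30c fell 1.44-fold, with a log2 fold change of -0.52 ± 0.14 (SE) and an adjusted p of 0.00580. Scaling by total counts alone turned that value to 0.15 (adjusted p = 0.410), a setting in which the median of all miRNAs stood at 0.69, so that miR-30c was -0.54 relative to that median. Over the 14 other settings its adjusted p ran from 0.000277 to 0.410. In the AOM-DSS model the log2 fold change was -0.35 ± 0.13 (SE) with an adjusted p of 0.0667, past the threshold in 9 of 16 other settings.

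Of the 5 members, 2 fell and 0 rose in AOM-DSS tumours, where 8.53% of the 563 miRNAs fell and 8.53% rose. In APC tumours 3 fell and 0 rose, against 12.6% of all miRNAs that fell and 9.24% that rose. Without overlap between the groups, 1 of 5 members lay lower in every AOM-DSS tumour, against 5.33% of all miRNAs, and 3 of 5 lay lower in every APC tumour, against 8.7%. The median log2 fold change of the members was -0.35 in the AOM-DSS model, beside 0.07 over all miRNAs. It was -0.52 in the APC model, beside 0.04 over all miRNAs. The split of calls over all miRNAs, 48 higher and 48 lower in the AOM-DSS model and 52 higher and 71 lower in the APC model, moved with the scaling. Total counts alone gave 104 higher and 25 lower in the AOM-DSS model and 353 higher and 25 lower in the APC model. Scaling to the mRNA probes gave 10 higher and 111 lower in the AOM-DSS model. Scaling to the 100 highest miRNAs gave 65 higher and 59 lower in the APC model, the authors' scaled values 86 higher and 42 lower, and leaving out miR-720, miR-143 and miR-145 gave 36 higher and 57 lower in the AOM-DSS model.

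Smooth and striated muscle markers moved with these falls. The summed level of miR-1, miR-133a, miR-133b, miR-143 and miR-145 ran from 14987 to 48061 CPM in AOM-DSS tumours, against 146764 to 184664 CPM in AOM-DSS normal samples. In APC tumours the sum ran from 10379 to 24382 CPM, against 172038 to 340301 CPM in APC normal samples. In each model 4 of the 5 muscle markers fell and the tumour and normal ranges of the sum did not overlap. miR-1, miR-133a and miR-133b were at background in all APC tumours, and miR-133b was at background in all AOM-DSS tumours and all AOM-DSS normal samples. The part of a change in tissue makeup in the falls of miR-30a, miR-30c and miR-30e was not tested. In pieces of whole tissue, fewer cells of a type and less RNA per cell cannot be told apart.

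miR-30b and miR-30d, the neighbours on chromosome 15, did not pass as lower or higher in either model over all libraries. miR-30b ran from 8568 to 10497 CPM with a median of 9533 CPM in AOM-DSS tumours, against 6440 to 10445 CPM with a median of 8387 CPM in AOM-DSS normal samples. In APC tumours 1 to 5 it stood at 3378, 16171, 18416, 20671 and 14895 CPM, against 7518 to 12860 CPM with a median of 9545 CPM in APC normal samples. APC tumours 2 to 5 lay above all APC normal samples and APC tumour 1 below all of them, while the AOM-DSS groups overlapped except for 1 tumour above the normal range. The log2 fold change was 0.22 ± 0.24 (SE, adjusted p = 0.631) in the AOM-DSS model and 0.59 ± 0.26 (SE, adjusted p = 0.122) in the APC model. Neither passed the threshold, and the interval around each leaves room for a difference.

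The result for miR-30b turned on APC tumour 1 and on the scaling and filter. Without it the log2 fold change in the APC model was 0.84 ± 0.14 (SE) with an adjusted p of 4.34e-06. With each other APC library left out in turn the values ran down to 0.44 and the adjusted p up to 0.298. Over the 14 other settings the adjusted p of miR-30b ran from 2.89e-06 to 0.606, and it passed in 5 of them. With APC tumour 1 kept, it passed with total counts alone (1.22, adjusted p = 0.000156), where the median of all miRNAs stood at 0.69. It also passed with the 100 highest miRNAs (adjusted p = 0.0319), the viral background filter (adjusted p = 0.0122) and the viral background subtracted (adjusted p = 0.0322).

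miR-30d ran from 1565 to 1810 CPM with a median of 1696 CPM in AOM-DSS tumours, against 1188 to 2240 CPM with a median of 2034 CPM in AOM-DSS normal samples. In APC tumours 1 to 5 it stood at 1574, 3216, 2967, 3331 and 2636 CPM, against 1801 to 2875 CPM with a median of 2149 CPM in APC normal samples. APC tumours 2 to 4 lay above all APC normal samples and APC tumour 1 below all of them. The AOM-DSS tumours were closely grouped, with an SD of 79.2 CPM around a mean of 1691 CPM (n = 6), and lay inside the normal range. The lower end of that range was AOM-DSS normal 7, the shallowest library, with 45 counts of miR-30d. AOM-DSS tumour 5, at 1565 CPM, lay below the next normal sample, at 1645 CPM. With the mRNA probes as scale, which put the median of all miRNAs at -0.40, miR-30d passed as lower in AOM-DSS tumours (-0.65, adjusted p = 0.0267, lowest of 16 other settings, the highest being 0.841). The log2 fold change was -0.17 ± 0.15 (SE, adjusted p = 0.507) in the AOM-DSS model and 0.28 ± 0.16 (SE, adjusted p = 0.249) in the APC model. Without APC tumour 1 the APC value was 0.43 ± 0.14 (SE, adjusted p = 0.0215), so that with that library left out all 5 members passed, 3 lower and 2 higher. Over all miRNAs that refit called 69 of 564 lower and 63 higher. Over the 14 other settings the adjusted p of miR-30d ran from 2.21e-06 to 0.564, and it passed in 5 of them.

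**Figure D2:**
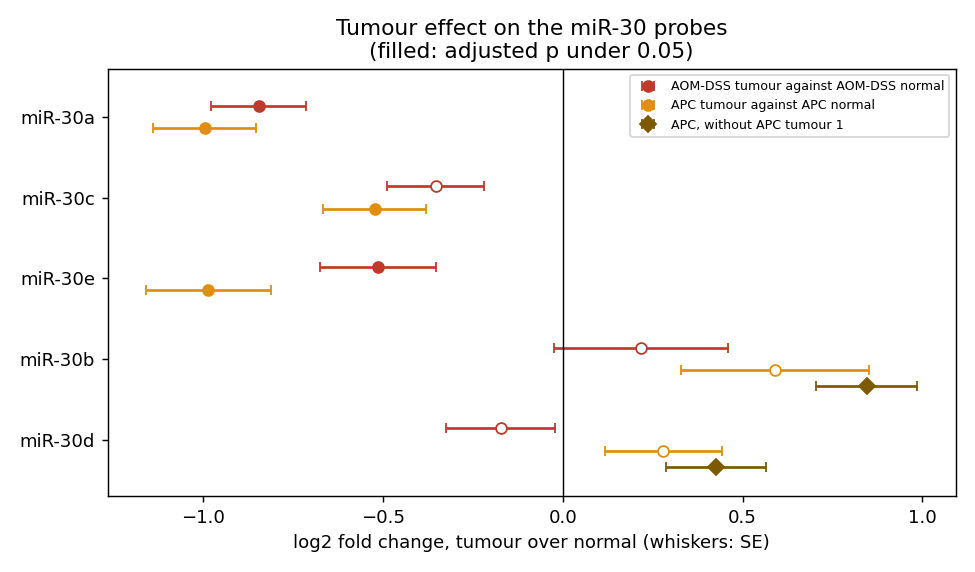
Log2 fold change of tumour over normal (horizontal axis) for each member in the AOM-DSS and APC models with SE as whiskers, filled where the adjusted p was under 0.05. miR-30a, miR-30c and miR-30e lie left of 0 (miR-30c at 0.15 in APC tumours with total counts alone), miR-30b lies right of 0 in both models (left of it, at -0.26, in AOM-DSS tumours with the mRNA probes as scale), and diamonds give miR-30b at 0.84 and miR-30d at 0.43 in the APC model without APC tumour 1.

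**Figure D3:**
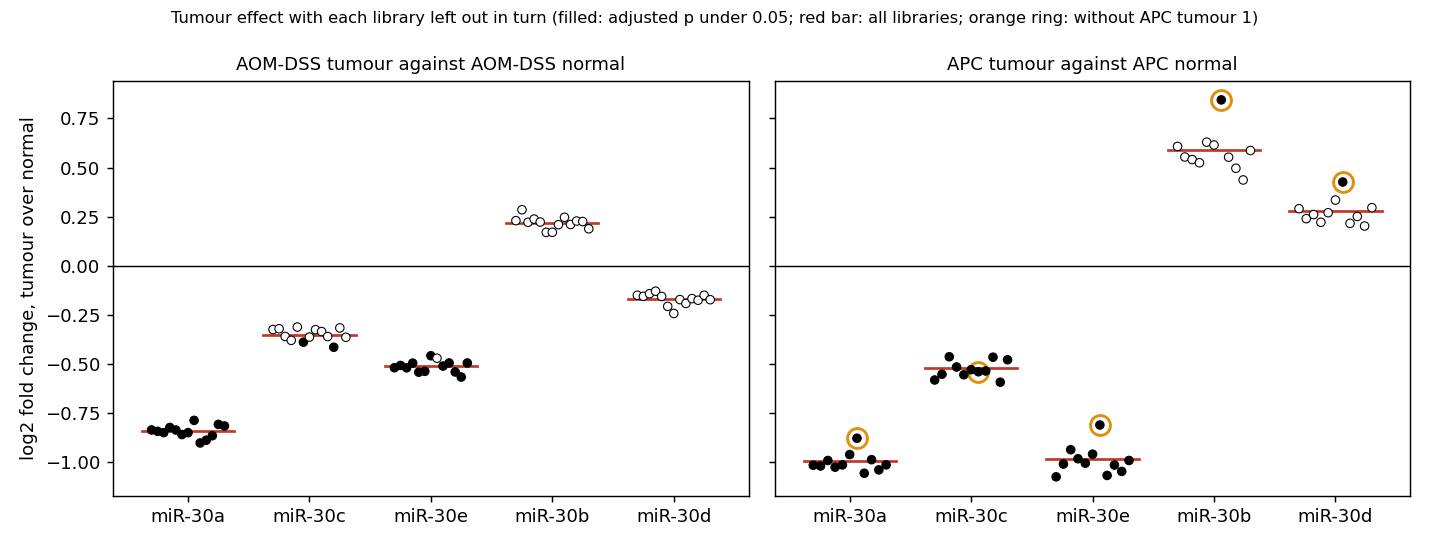
Log2 fold change of tumour over normal (vertical axis) for each member when 1 library at a time was left out (1 point per refit, filled where the adjusted p was under 0.05), with the value over all libraries as a red bar. The refit without APC tumour 1, ringed in orange, is the only one in which miR-30b and miR-30d pass.

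Whether the tumour effect differed between the models was tested as an interaction, AOM-DSS effect minus APC effect. With edgeR's quasi-likelihood test 0 of 5 members passed, where 2.84% of all miRNAs had a lower and 3.91% a higher effect in the AOM-DSS model. At an unadjusted p under 0.05 there was 1 of 5 members, beside 120 of the 563 miRNAs. At the adjusted threshold DESeq2 and limma-voom also gave 0 members. The members furthest from 0 were miR-30e, whose difference of log2 fold changes was 0.47 ± 0.23 (SE, adjusted p = 0.237), and miR-30d, at -0.45 ± 0.22 (SE, adjusted p = 0.228). The difference was 0.15 ± 0.19 for miR-30a, 0.17 ± 0.20 for miR-30c and -0.37 ± 0.36 for miR-30b (SE), with adjusted p of 0.692, 0.652 and 0.596. Without APC tumour 1 the difference reached -0.63 for miR-30b (adjusted p = 0.0216) and -0.60 for miR-30d (adjusted p = 0.0282), the effect of both being higher in the APC model. With each of the 24 libraries left out in turn the adjusted p ran from 0.0216 to 0.758 for miR-30b and from 0.0282 to 0.394 for miR-30d. The difference for miR-30d also passed in 5 of 12 other settings, with an adjusted p from 0.00284 to 0.293.

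Between the 2 kinds of normal tissue, miR-30e was the member past the threshold. It averaged 886 ± 143 CPM in AOM-DSS normal samples (SD, n = 7) and 1267 ± 132 CPM in APC normal samples (SD, n = 6), and 6 of the 7 AOM-DSS samples lay below all APC samples. The log2 fold change was -0.54 ± 0.16 (SE), 1.45-fold lower in AOM-DSS, with an adjusted p of 0.0487. Of all miRNAs 1.78% were lower and 1.6% higher in that comparison. The call is marginal: leaving out 1 library at a time gave an adjusted p from 0.0288 to 0.140 and ended it in 12 of 13 refits, all but the one without AOM-DSS normal 7, and 6 of 13 other settings ended it too. All 7 AOM-DSS normal samples lay below all 6 APC normal samples for miR-30a, as for 1.07% of all miRNAs, with a log2 fold change of -0.34 ± 0.13 (SE) and an adjusted p of 0.150, past the threshold in 4 of 13 other settings. For miR-30b, miR-30c and miR-30d the values were -0.26, -0.17 and -0.25, with adjusted p of 0.669, 0.605 and 0.445.

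Between the 2 kinds of tumour the member past the threshold was miR-30d. It averaged 1691 ± 79.2 CPM in AOM-DSS tumours (SD, n = 6) and 2745 ± 707 CPM in APC tumours (SD, n = 5). The log2 fold change was -0.70 ± 0.16 (SE), 1.62-fold lower in AOM-DSS, with an adjusted p of 0.00300, and the call held in all 13 other settings, where the value reached -1.22 with the mRNA probes as scale, and in all 11 refits without a library. Of all miRNAs 3.91% were lower and 4.8% higher in that comparison. miR-30b stood at -0.63 ± 0.26 (SE, adjusted p = 0.171), and at -0.88 without APC tumour 1 (adjusted p = 8.24e-06). Over the 11 refits without a library its adjusted p ran up to 0.376, and it passed in 3 of 13 other settings. miR-30a, at -0.19, and miR-30e, at -0.07, had adjusted p of 0.486 and 0.864, and miR-30c averaged 537 CPM in both tumour groups. Since model and cartridge cannot be told apart, these values and those of the normal samples compare libraries of different cartridges.

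Ordered by group means, miR-30a, miR-30c and miR-30e shared 1 order, APC normal highest, then AOM-DSS normal, APC tumour and AOM-DSS tumour. For these members the gap between the tumour groups was smaller than the larger SD, and the gaps above it were not. For miR-30b the order was APC tumour, APC normal, AOM-DSS tumour, AOM-DSS normal, and for miR-30d it was APC tumour, APC normal, AOM-DSS normal, AOM-DSS tumour. No neighbours in either of those orders were separated by more than the larger SD.

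Ratios of raw counts within a library do not depend on how libraries are scaled. They were chosen after the levels had been seen, so they are given as a description with no test, and since probes differ in efficiency they are not ratios of molecules. The count of miR-30b over that of miR-30a was 5.00 to 8.61 in AOM-DSS tumours, against 2.60 to 4.05 in AOM-DSS normal samples. In APC tumours 1 to 5 it was 3.12, 8.50, 11.5, 11.3 and 8.63, against 2.46 to 3.66 in APC normal samples. The AOM-DSS groups did not overlap, and APC tumours 2 to 5 were all above the normal range, with APC tumour 1 inside it. The count of miR-30d over that of miR-30a was 1.01 to 1.49 in AOM-DSS tumours, against 0.479 to 0.850 in AOM-DSS normal samples. It was 1.46 to 1.85 in APC tumours, against 0.621 to 0.769 in APC normal samples. Here no tumour overlapped a normal sample in either model, APC tumour 1 included. The count of miR-30e over that of miR-30a overlapped between tumour and normal in both models, with medians of 0.441 in AOM-DSS tumours, 0.335 in AOM-DSS normal samples, 0.409 in APC tumours and 0.388 in APC normal samples. The count of miR-30c over that of miR-30a was 0.294 to 0.433 in AOM-DSS tumours, with a median of 0.401, against 0.221 to 0.30 and a median of 0.266 in AOM-DSS normal samples. It was 0.273 to 0.523 in APC tumours, with a median of 0.292, against 0.209 to 0.283 and a median of 0.230 in APC normal samples. The ranges of that ratio overlapped at their edges in both models, and a higher ratio to miR-30a was therefore not limited to the chromosome 15 members.

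**Figure D4:**
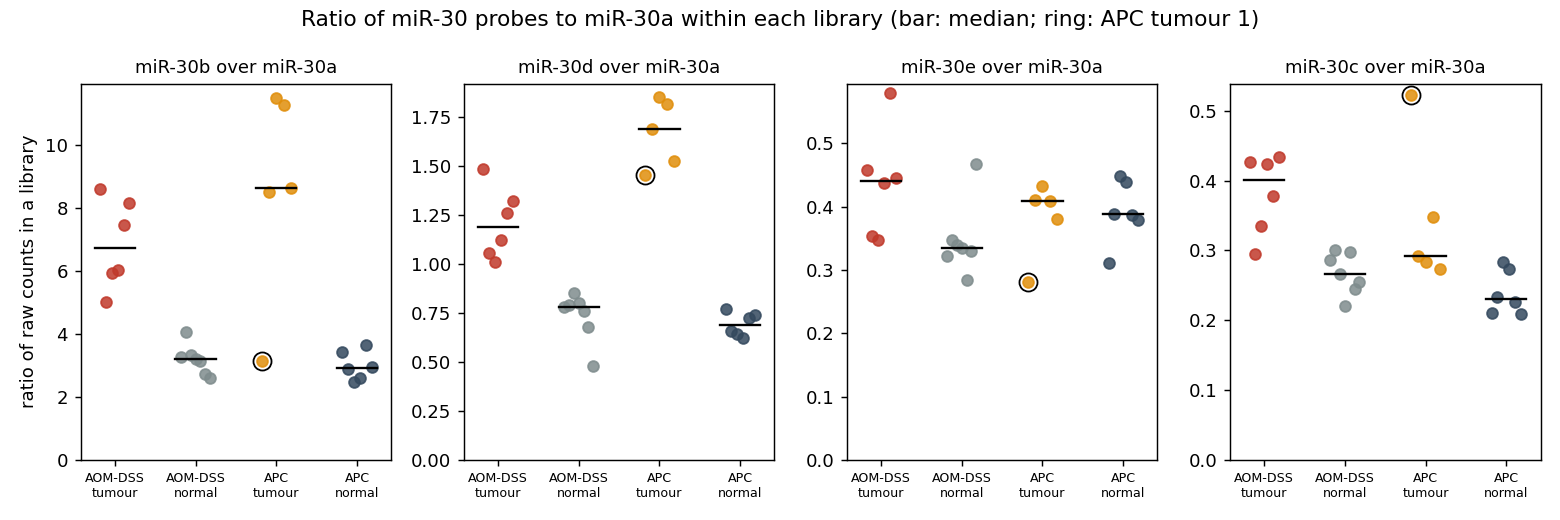
Ratio of the raw count of miR-30b, miR-30d, miR-30e and miR-30c to that of miR-30a within each library (vertical axes, each starting at 0), with 1 point per library, the group median as a bar and APC tumour 1 ringed. The miR-30d ratios of tumours (1.01 to 1.85) lie above those of normal samples (0.479 to 0.850), and the miR-30e and miR-30c ratios of tumours and normal samples overlap.

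The members were also compared across libraries. Over the 24 libraries, which share group differences and cartridges, Pearson's r of log2 CPM was 0.889 for miR-30a with miR-30e, 0.797 for miR-30a with miR-30c and 0.778 for miR-30b with miR-30d. It was 0.0447 for miR-30a with miR-30b, or -0.25 without APC tumour 1, and 0.282 for miR-30a with miR-30d. After the group means were removed, r was 0.828 for miR-30b with miR-30d, 0.713 for miR-30a with miR-30d, 0.693 for miR-30b with miR-30e, 0.687 for miR-30a with miR-30b and 0.639 for miR-30a with miR-30e. With APC tumour 1 included, the contrast seen in the levels was thus not present in these deviations. Without APC tumour 1 the same values were 0.766, 0.500, -0.20, 0.249 and 0.205, so that miR-30b with miR-30d was the pair that moved least of the 5. For miR-30d with miR-30e, r of the deviations was 0.410, or -0.25 without APC tumour 1. With that library left out, miR-30b and miR-30d thus each had a negative r with miR-30e. The absence of the contrast rested in part on APC tumour 1. For miR-30c, r of the deviations was 0.183 with miR-30a, -0.0036 with miR-30e, -0.025 with miR-30b and 0.136 with miR-30d. In the same order these were 0.366, 0.177, 0.211 and 0.282 without APC tumour 1. The r of 0.797 between the levels of miR-30a and miR-30c thus went mainly with the group differences.

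Among 102 other miRNAs above background in all 24 libraries, the closest to miR-30a in level were miR-145 (r = 0.925), miR-365 (r = 0.921) and miR-143 (r = 0.915). miR-143 and miR-145 are a pair known from smooth muscle and other mesenchymal cells. The closest to miR-30e and to miR-30c in level was also miR-145, at r of 0.841 and 0.797. With the group means removed, r with miR-145 was 0.748 for miR-30a, 0.557 for miR-30e and 0.123 for miR-30c. Without APC tumour 1 these were 0.630, 0.269 and 0.222. The r of levels between miR-30c and miR-145 thus went mainly with the group differences. For miR-30b the closest were miR-24 (r = 0.835), miR-106b (r = 0.831) and miR-99b (r = 0.811), and for miR-30d they were let-7e (r = 0.788), miR-23b (r = 0.778) and miR-181a (r = 0.767). With miR-145, miR-30b had r of -0.17, or -0.54 without APC tumour 1, and miR-30d had -0.022, or -0.12 without it. For deviations from the group means, miR-199a-5p (r = 0.885) came first for miR-30a, miR-203 (r = 0.933) for miR-30b, miR-150 (r = 0.412) for miR-30c, miR-107 (r = 0.853) for miR-30d and miR-141 (r = 0.826) for miR-30e. These first-ranked values include APC tumour 1 and were not recomputed without it. Leaving it out took r of deviations from 0.918 to 0.714 for miR-30b with miR-24. It went from 0.896 to 0.545 for miR-30b with miR-106b and from 0.838 to 0.718 for miR-30d with miR-23b.

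Beside the miR-30 family, other families linked to epithelial identity, namely miR-200, miR-203, miR-205, miR-204, miR-211 and miR-34, had 4 of 12 members that rose and 1 that fell in AOM-DSS tumours, and 4 that rose and 3 that fell in APC tumours. Over all miRNAs 8.53% rose and 8.53% fell in AOM-DSS tumours, and 9.24% rose and 12.6% fell in APC tumours, and the list counts that follow stand beside these shares. The median log2 fold change of the list was 0.34 in the AOM-DSS model and 0.22 in the APC model, beside 0.07 and 0.04 over all miRNAs. The members named next were those with the smallest p in a model, and the members that fell are not among them. miR-200c, which represses Zeb1 and Zeb2, had a log2 fold change of 0.66 ± 0.12 (SE, adjusted p = 4.42e-05) in AOM-DSS tumours. miR-205 of stratified epithelium had 1.49 ± 0.29 (SE, adjusted p = 0.000682) in AOM-DSS tumours and 2.61 ± 0.32 (SE, adjusted p = 1.26e-06) in APC tumours.

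Of 21 measured miRNAs reported as lowered in colorectal tumours, 15 fell and 0 rose in AOM-DSS tumours, and 12 fell and 1 rose in APC tumours, with medians of -0.81 and -0.82 beside the same 0.07 and 0.04. That list holds all 5 muscle markers, of which 4 fell in each model. It also holds the miR-26 pair, of which both fell in AOM-DSS tumours and 1 in APC tumours, and the miR-29 family, which represses collagens and of which 2 of 3 fell in each model. miR-29c had a log2 fold change of -0.54 ± 0.12 (SE, adjusted p = 0.00113) in AOM-DSS tumours and -1.15 ± 0.14 (SE, adjusted p = 8.72e-09) in APC tumours. Of the 9 let-7 family members, 0 passed in AOM-DSS tumours, and 2 rose and 1 fell in APC tumours.

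Among markers of the cells a piece of colon can hold, those of colon epithelium had 2 of 8 that rose and 1 that fell in AOM-DSS tumours, and 1 that rose and 5 that fell in APC tumours. Their summed level ran from 82792 to 105581 CPM in AOM-DSS tumours, against 72991 to 109768 CPM in AOM-DSS normal samples. It ran from 66303 to 84226 CPM in APC tumours, against 97453 to 132938 CPM in APC normal samples, so that the APC ranges did not overlap. miR-194, a marker of gut epithelium, had a log2 fold change of -1.70 ± 0.15 (SE, adjusted p = 3.40e-12) in APC tumours. The difference of its tumour effects, AOM-DSS minus APC, was 1.33 ± 0.19 (SE, adjusted p = 1.25e-05), so its fall in APC tumours does not stand for both models. Fibroblast and mesenchyme markers had 1 of 7 that rose and 2 that fell in AOM-DSS tumours, and 2 that rose and 1 that fell in APC tumours. Leukocyte markers had 1 of 8 that rose and 0 that fell in AOM-DSS tumours, close to the share over all miRNAs, and 2 that rose and 1 that fell in APC tumours. The member that fell was miR-142-5p, at -0.88 ± 0.14 (SE, adjusted p = 3.57e-06) in APC tumours and -0.31 ± 0.13 (SE, adjusted p = 0.0829) in AOM-DSS tumours. miR-223 of neutrophils was higher, at 0.74 ± 0.22 (SE, adjusted p = 0.0198) in AOM-DSS tumours and 1.25 ± 0.25 (SE, adjusted p = 0.000258) in APC tumours. Endothelial markers had 0 of 2 past the threshold in AOM-DSS tumours and 1 that rose in APC tumours, and erythrocyte markers had 0 of 3 and 1 that fell. The part of these cell types in the miR-30 values was not tested.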

How the data were processed

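miRNA in total RNA of 24 mouse colon samples was counted with a NanoString panel, whose probes bind without amplification. The deposited text table holds the authors' raw counts per probe, with cartridge, viral and mRNA probes. A second deposited table holds the authors' scaled signal. Each raw column was tied to its library by proportionality to that table, over 599 probes and 14376 values, of which 100% matched within 0.01 counts after 33 counts of 0 were set to 1. No software or genome build is named in the labels or files, and the depositors' text names both formalin-fixed and frozen tissue.

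Counts were tested in edgeR 4.0.16 (R 4.3.3) with TMM scaling, filterByExpr (minimum count 10, minimum total 15, 563 of 566 probes kept) and the robust quasi-likelihood test on 1 mean per group. SE is the log2 fold change over the root of F. Background is the viral mean plus 2 SD per library. The script was tested on simulated data. Alternatives used DESeq2 1.42.0, limma 3.58.1, other scalings, filters, cartridge, the replicate block and each library left out. limma was run as limma-voom on the counts, and separately on the authors' scaled signal (log2 with a pseudocount of 1). miR-215 was not analysed here.

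Named are the 5 members, the 3 miRNAs most correlated with each, and the leading miRNAs of marker lists. Members and lists were chosen with earlier results of these data known. No 2 libraries looked like 1 deposited again: the closest pair had a chi-square of 3.30 per degree of freedom. Precision is limited by counts, which were 24 to 6449 for the members.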

Additional observations from a re-analysis of the deposited data

Results flagged for a closer look

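In APC tumour 1 miR-30b had 3378 CPM, a log2 level of 11.73, and was the lowest of the 5 APC tumours. Its gap to the next library was 0.819 of the whole range of the group. In the same library miR-30e had 304 CPM, a log2 level of 8.29, with a gap of 0.814 of the range. Over the 20 groups of member values examined, chance would mark about 1 in 20, and both marks fall on the same library, which has the second lowest total count.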

How the results depend on the processing

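miR-30a in both models, miR-30e in APC tumours and miR-30d between tumours stayed past the threshold in the same direction under all settings run, but with sizes of -1.35 to -0.61 for miR-30a in AOM-DSS tumours, -1.06 to -0.34 for miR-30a and -1.10 to -0.35 for miR-30e in APC tumours, and -1.22 to -0.66 for miR-30d. The count of members past the threshold in AOM-DSS tumours was 1 with total counts alone, cartridge as a term or the shared cartridge alone, and 4 with the mRNA probes, and ran from 1 to 3 with each library left out. In APC tumours it was 5 with the 100 highest miRNAs, with the viral background filter and without the 2 shallowest libraries (an alternative chosen after seeing the data), and ran from 3 to 5 with each library left out. For the difference between models it was 1 with total counts, the 100 highest miRNAs, the mRNA probes or the background filter and 2 without the 2 shallowest libraries (range 0 to 2). Between normal samples it was 0 with total counts, the mRNA probes, miR-720, miR-143 and miR-145 left out, no filter, limma-voom or the authors' scaled values, and 2 with the 100 highest miRNAs, the background filter or subtraction, or DESeq2 (range 0 to 1). Between tumours it was 3 with the mRNA probes or the background filter and 2 without the 2 shallowest (range 1 to 2). Calls over all miRNAs moved too. In APC tumours the 100 highest miRNAs gave 124 of 563, the background filter 123 of 226, and leaving out the 2 shallowest 135 of 564, against 123 of 563. In AOM-DSS tumours total counts gave 129 and the mRNA probes 121 of 563, against 96. The background filter gave 52 of 226 for the difference, 35 between normal samples and 50 between tumours, against 38, 19 and 49 of 563.

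Signs turned as follows, none of them past the threshold. With total counts alone, miR-30c in APC tumours had 0.15, miR-30d in AOM-DSS tumours 0.078, the difference -0.26 for miR-30a and -0.25 for miR-30c, the normal comparison 0.062 for miR-30c and 0.0040 for miR-30d, and the tumour comparison -0.19 for miR-30c. With the mRNA probes, miR-30b in AOM-DSS tumours had -0.26, the difference -0.43, -0.34 and -0.11 for miR-30a, miR-30c and miR-30e, and the tumour comparison -0.46 for miR-30c. The median of all miRNAs then stood at 0.69 in APC and 0.30 in AOM-DSS tumours with total counts, and at -0.40 in AOM-DSS tumours with the mRNA probes, and no value above changed sign relative to the median. With the authors' scaled values the difference was -0.0030 for miR-30a and the tumour comparison -0.055 for miR-30c. The miR-30c tumour comparison, near 0, also had -0.042 with RLE, -0.069 with the 100 highest, -0.028 without miR-720, miR-143 and miR-145, -0.010 with no filter, -0.091 with the background filter, -0.038 with DESeq2 and -0.014 with only 2 groups, and ran from -0.063 to 0.071 with each library left out, while miR-30e there ran from -0.24 to 0.015. The cause was not tested.

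The depositors' design text speaks of matched normal tissue, but the labels do not tie equal numbers to the same animal. The main fit therefore took no pairs, and any true pairing is left out of its p-values. Same-numbered samples did not deviate together (correlations -0.34 to -0.01 in APC and -0.08 to 0.13 in AOM-DSS). That check cannot tell whether tumour and normal samples were matched, because the numbers may not name animals. With the replicate block, miR-30c had -0.53 (adjusted p = 0.168) in APC tumours and -0.38 (adjusted p = 0.0368) in AOM-DSS tumours, and 2 and 3 members passed. Over all miRNAs the block gave 64 calls in APC tumours, against 123 without it, or 92 over the same 10 libraries.

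Over all miRNAs, total counts gave 378 calls in APC tumours, 61 for the difference and 41 between normal samples, against 123, 38 and 19. The mRNA probes gave 74 in APC tumours and 4 between normal samples. AOM-DSS tumours had 60 with the cartridge term and 58 within the shared cartridge, against 96. The background filter gave 35 between normal samples, and leaving out the 2 shallowest gave 59 for the difference and 29 between normal samples. Leaving out 1 library gave 8 to 12 between normal samples without APC normal 3 or 4 or AOM-DSS normal 1, 2, 4 or 5, and 28 to 31 between tumours, against 49, without APC tumour 2, 3 or 4. The share of calls that were higher, 57.9% for the difference, 47.4% between normal samples and 55.1% between tumours, was 16.4%, 90.2% and 34.9% with total counts, 6.06%, 75% and 3.08% with the mRNA probes and 37.1%, 83.3% and 43.2% with the authors' scaled values. It was 41.5% for the difference and 40.5% between tumours with the 100 highest, and 60% between normal samples and 43.9% between tumours without miR-720, miR-143 and miR-145. AOM-DSS normal 7, with 24 counts of miR-30c, is the shallowest library.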
